A study of Mus musculus with 4 samples.

Results

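A set of 10 genes with known roles in fat cells was read out in tumor-associated macrophages (TAMs), as a check for adipose tissue carried along with a tumor. They were *Adipoq*, *Lep*, *Retn*, *Cfd*, *Plin1*, *Cidec*, *Lipe*, *Fabp4*, *Car3* and *Pck1*, and each was found by its Ensembl identifier among the 54532 genes of the count table. All 10 had at least 1 count in at least 1 library, but 4 of the 10 (*Fabp4*, *Lipe*, *Cfd* and *Car3*) passed the expression filter that left 16451 genes for testing. *Fabp4* and *Lipe* had the most counts and were higher in the SYK KO libraries after standard scaling. By contrast, *Adipoq*, *Lep* and *Pck1* had a few counts in the SYK WT libraries and 0 counts in both SYK KO libraries. The share of all genes with that pattern was not counted. Fewer genes were detected in the SYK KO libraries (20616 and 19553) than in the SYK WT libraries (23018 and 23026). The direction for *Fabp4* and *Lipe* turned when libraries were scaled to macrophage or leukocyte markers. On those scales 73.2% to 93.3% of all genes tested were called lower, and both genes stayed above the median of all genes.

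The white adipocyte stores triglyceride in a single large lipid droplet and releases it as fatty acids when energy is needed. Perilipin 1 (*Plin1*) and CIDEC (*Cidec*) coat and enlarge that droplet, and hormone-sensitive lipase (*Lipe*) cuts the diacylglycerol that adipose triglyceride lipase produces from the stored fat. The cell also acts as an endocrine gland, secreting adiponectin (*Adipoq*), leptin (*Lep*), resistin (*Retn*, made by fat cells in mice) and adipsin or complement factor D (*Cfd*). Several of these genes are not restricted to fat, since macrophages that handle lipid also make the fatty-acid-binding protein FABP4 and use neutral lipases, and muscle, liver and kidney use carbonic anhydrase 3 (*Car3*) or the gluconeogenic enzyme PEPCK (*Pck1*).

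The libraries came from mice of the C57BL/6 background, described as 4 to 6 weeks old at injection. The mice carried tumors of NB9464, a MYCN-driven mouse neuroblastoma line, grown from implanted cells until day 40 with no treatment. The paper describes the injection of these cells as subcutaneous. Myeloid Syk WT mice gave 2 libraries (M7 and M8, labelled SYK WT) and myeloid Syk KO mice gave 2 (M9 and M10, labelled SYK KO); the strain was made by crossing floxed *Syk* mice with mice carrying Cre under the lysozyme M promoter, which is active in macrophages, monocytes and granulocytes. The sources used here do not state which of these alleles the SYK WT mice carried, how many mice went into a library, or whether the 2 libraries of a genotype came from separate mice, so that p-values measure only the spread between these libraries. TAMs were taken from the tumors with magnetic beads against CD11b and F4/80, although the same label goes on to name bone-marrow-derived macrophages as the source of the RNA. The title of the series names an adoptive transfer experiment, which the sample labels do not describe, so the libraries were taken as TAMs of the 2 genotypes and their origin remains uncertain.

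Total counts ranged from 20755886 to 23518045 per library. *Syk* itself was higher in the libraries labelled SYK KO (27.9 and 23.2 CPM in SYK WT against 196 and 160.4 CPM in SYK KO, where CPM stands for counts-per-million after TMM scaling), so every direction given is that of the libraries as labelled. The 4 libraries also differed in their markers of other cells. The summed level of 10 macrophage markers was 755 to 1068 CPM in SYK WT and 3391 to 5777 CPM in SYK KO, with 9 of the 10 higher and *Lyz2* lower in SYK KO. The 8 fibroblast markers summed to 12560 and 14450 CPM in SYK WT against 4058 and 4960 CPM in SYK KO, and 6 of the 8 were lower. Over all genes tested, 22.7% were called higher and 16.7% lower. Mitochondrial genes took 2.20% and 2.33% of the SYK WT counts and 6.00% and 15.8% of the SYK KO counts. In bulk libraries of this kind, fewer cells of a type and less RNA per cell cannot be told apart.

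Among the secreted products of fat cells, adiponectin (*Adipoq*, chr16:23146536-23158028 in GRCm38) had 15 and 5 counts in M7 and M8 and 0 in M9 and M10. These were 0.547 and 0.204 CPM in the SYK WT libraries, so that the SYK KO level was at least 2.43-fold lower against a floor of 3 counts in each library. Leptin (*Lep*, chr6:29060220-29073877), which reports fat stores to the brain, had 4 and 11 counts in SYK WT and 0 in both SYK KO libraries, a level at least 1.92-fold below the SYK WT mean. That bound rested on M8, since the *Lep* level in M7, 0.146 CPM, lay below the mean SYK KO floor of 0.155 CPM. Both genes were thus seen in each SYK WT library and in neither SYK KO library, but neither passed the expression filter. With that filter lifted, so that 26596 genes were tested, edgeR's adjusted p was 0.0396 for *Adipoq* and 0.0810 for *Lep*, and DESeq2's was 0.109 and 0.178. Resistin (*Retn*) had 9, 1, 1 and 2 counts in the libraries M7 to M10, and its ratio of SYK WT to SYK KO, 2.50, had a 95% counting interval from 0.643 to 14.1. No difference in *Retn* was detectable at this depth.

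Adipsin (*Cfd*, chr10:79890853-79892655), a serine protease of the alternative complement pathway, had far more counts than the other secreted products. Its counts were 158, 36, 5 and 17 in the libraries M7 to M10, or 5.76, 1.47, 0.243 and 0.926 CPM. Both SYK KO libraries were below both SYK WT libraries, and the spread inside each genotype was wide, with M7 3.93-fold above M8. The mean was 3.61 ± 3.04 CPM in SYK WT and 0.585 ± 0.483 CPM in SYK KO (SD, n = 2 each). Its log2 fold change of -2.63 (SE 0.911) missed the threshold in edgeR's quasi-likelihood test (adjusted p = 0.0611), and DESeq2 gave an adjusted p of 0.0107. Without M7 the log2 fold change was -1.33 (edgeR adjusted p = 0.579), and it was -3.86 without M10 (edgeR adjusted p = 0.000459). The edgeR adjusted p was 0.0495 without M8 and 0.0141 without M9, so single libraries decided both the size and the call.

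The 2 droplet proteins were near the limit of detection. *Plin1*, the perilipin that shields the droplet of a white fat cell from lipases, had 12, 4, 7 and 5 counts in the libraries M7 to M10. All 4 libraries held it at low levels, 0.163 to 0.438 CPM, with the SYK KO libraries between the SYK WT libraries, and the ratio of SYK WT to SYK KO was 0.999 with a counting interval from 0.443 to 2.31. *Cidec*, which drives the fusion of small droplets into large ones, had 18, 2, 4 and 0 counts. Its SYK WT to SYK KO ratio of 3.75 (counting interval 1.25 to 15.1) rested on M7, since M8 had fewer counts than M9. Such intervals cover counting error only, and with the filter lifted neither gene passed edgeR's test (adjusted p = 0.998 for *Plin1* and 0.421 for *Cidec*).

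*Pck1* (chr2:173153048-173159273), whose product makes the glycerol backbone for triglyceride in fat cells and glucose in liver and kidney, followed *Adipoq*. It had 15 and 6 counts in SYK WT and 0 in both SYK KO libraries, at least 2.56-fold lower, with an edgeR adjusted p of 0.0337 once the filter was lifted and a DESeq2 adjusted p of 0.0953. *Car3*, an abundant cytosolic carbonic anhydrase of fat and slow muscle, had 89, 28, 1 and 21 counts. At 3.25, 1.14, 0.0486 and 1.14 CPM, the M10 library was level with M8, and the low SYK KO mean came from M9, where 1 count was seen. The edgeR log2 fold change for *Car3* was -1.89 (SE 1.16, adjusted p = 0.236). In edgeR it became -5.35 (adjusted p = 0.000227) without M10, -1.03 (adjusted p = 0.164) without M9 and -0.94 (adjusted p = 0.761) without M7, so that the call depended on which library was kept.

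**Figure D1:**
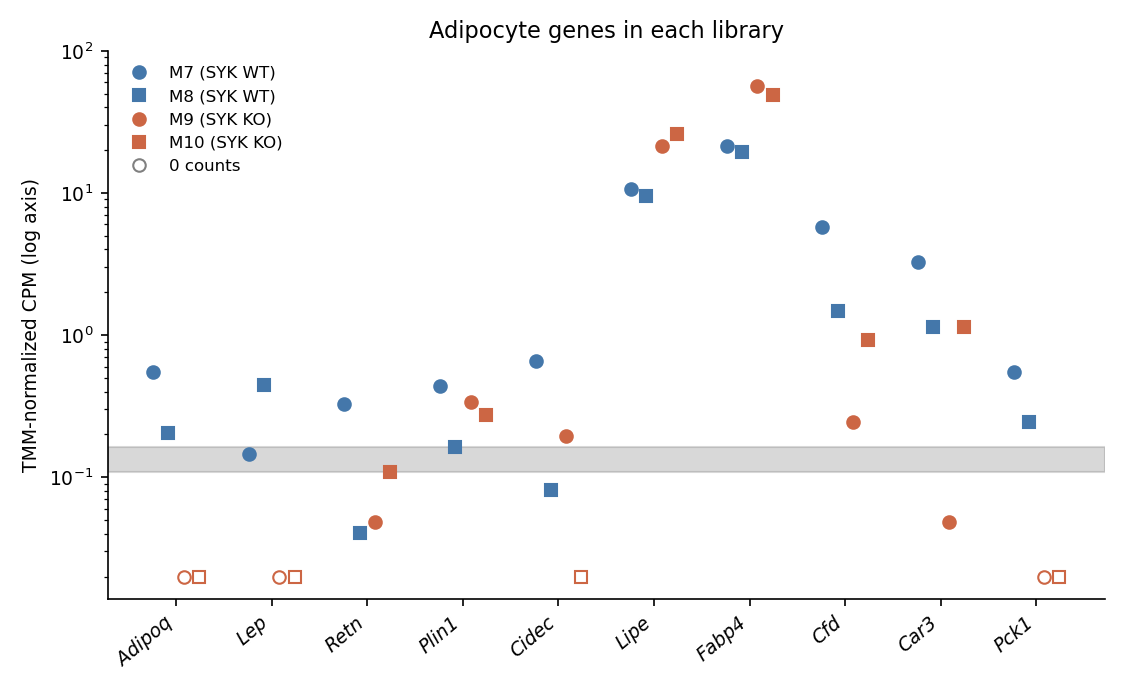
TMM-normalized CPM of the 10 adipocyte genes in each library on a log axis, with circles and squares for the libraries of each genotype, open symbols for 0 counts (placed below the axis range of the data) and a grey band for the level of 3 counts in a library (0.109 to 0.163 CPM). *Fabp4* and *Lipe* lie above the other genes with the SYK KO points above the SYK WT points, whereas *Adipoq*, *Lep* and *Pck1* have open symbols in both SYK KO libraries.

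The promoters of the 3 genes with 0 counts in both SYK KO libraries are printed here because these genes shared that pattern. Each sequence is the 250 bases before the start site in RefSeq (GRCm38.p6), all on the plus strand, from chr16:23146286-23146535 for *Adipoq*, chr6:29059971-29060220 for *Lep* and chr2:173152823-173153072 for *Pck1*. Capitals mark matches on either strand to CCAAT (the CCAAT box) or TTGCNNAA (a C/EBP site, bound by the adipogenic C/EBP factors).
Adipoq: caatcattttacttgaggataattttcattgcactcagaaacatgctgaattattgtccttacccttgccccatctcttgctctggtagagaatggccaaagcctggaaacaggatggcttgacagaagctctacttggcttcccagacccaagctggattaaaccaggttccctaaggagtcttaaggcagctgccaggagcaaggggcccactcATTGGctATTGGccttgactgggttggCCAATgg
Lep: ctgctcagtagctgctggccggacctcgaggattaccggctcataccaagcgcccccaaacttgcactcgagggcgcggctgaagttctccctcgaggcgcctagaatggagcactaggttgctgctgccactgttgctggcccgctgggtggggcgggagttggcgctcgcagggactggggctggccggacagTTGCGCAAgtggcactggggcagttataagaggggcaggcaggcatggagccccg
Pck1: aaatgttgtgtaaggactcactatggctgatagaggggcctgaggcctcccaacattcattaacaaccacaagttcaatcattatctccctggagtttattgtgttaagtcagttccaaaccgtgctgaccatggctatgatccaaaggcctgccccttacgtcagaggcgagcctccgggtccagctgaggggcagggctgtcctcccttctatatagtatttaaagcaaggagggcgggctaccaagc
Of the 10 genes, 8 had an entry in that table, with 10 windows of 250 bases before to 50 after a start site, and *Cidec* and *Lipe* had a pair of starts each. The C/EBP letters were in 3 of the 10 windows (*Plin1*, 1 start of *Cidec*, and *Lep*) and in 10.8% of all 32851 windows. CCAAT was in 1 window, that of *Adipoq* with 3 matches, and in 37.4% of all windows. TATAAA, the TATA box, and AGGTCA, the hexamer that PPARγ and other nuclear receptors recognise, were in none of the 10 windows and in 13.6% and 16.3% of all windows. These 3 promoters thus shared none of the 4 motifs searched. A match is a description of the letters and not of a factor's binding.

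*Fabp4* (chr3:10204088-10208576) was the most abundant of the 10 genes. It encodes a cytosolic carrier of fatty acids that makes up much of the soluble protein of fat cells and is also made by macrophages and capillary endothelium. Its counts were 585, 475, 1157 and 902 in the libraries M7 to M10, or 21.3, 19.3, 56.2 and 49.2 CPM. Both SYK KO libraries were above both SYK WT libraries and each pair lay close together, with M7 1.10-fold above M8 and M9 1.14-fold above M10. The mean was 20.3 ± 1.41 CPM in SYK WT and 52.7 ± 4.97 CPM in SYK KO (SD, n = 2 each), a log2 fold change of 1.37 (SE 0.169, edgeR adjusted p = 0.00232), or 2.59-fold.

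*Lipe* (chr7:25379527-25398710, minus strand) had 291, 234, 437 and 478 counts, or 10.6, 9.52, 21.2 and 26.1 CPM. The SYK KO libraries were again both above the SYK WT libraries. Its mean rose from 10.1 ± 0.769 CPM to 23.6 ± 3.42 CPM (SD, n = 2 each), a log2 fold change of 1.23 (SE 0.218, edgeR adjusted p = 0.00729). Without M8 the call was lost, at a log2 fold change of 1.14 and an edgeR adjusted p of 0.0709. *Lipe* shares 918 exonic bases with 4732471J01Rik on the other strand. That gene had 21, 19, 6 and 13 counts, and the sources do not say whether reads were assigned by strand, so reads of the overlapping bases cannot be told apart. No other gene of the 10 overlapped another gene.

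In all, 2 of the 4 genes tested were higher in SYK KO and none was lower at an adjusted p under 0.05 in edgeR. *Cfd* was lower at an unadjusted edgeR p under 0.05, a threshold for which the share of all genes was not counted. It was also called lower by DESeq2, which called 18.9% of its genes higher and 15.3% lower. Over all genes tested, 22.7% were called higher and 16.7% lower, so a call in either direction was frequent in these libraries. Counting all 10 genes without a test, both SYK KO libraries were below both SYK WT libraries for 4 (*Adipoq*, *Lep*, *Pck1* and *Cfd*) and above them for 2 (*Fabp4* and *Lipe*). The corresponding shares were 31.6% and 26.7% of the 26596 genes with any count, so neither count stood far from its background. The 6 genes below the filter had at most 18 counts in any library. With the filter lifted edgeR called 4 of the 10 lower (*Adipoq*, *Pck1*, *Cfd* and *Car3*), beside 12.7% of the 26596 genes, and *Fabp4* and *Lipe* higher, beside 15.7%.

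The 10 genes did not keep the same proportions across libraries. *Fabp4* and *Lipe* supplied 73.2% and 88.4% of the summed counts of the 10 genes in M7 and M8, and 98.9% and 96.8% in M9 and M10. The other 8 genes together had 320, 93, 18 and 45 counts. The 5 most restricted to fat cells (*Adipoq*, *Plin1*, *Cidec*, *Lep* and *Retn*) had 58, 23, 12 and 7 counts, so that their sum was highest in M7 and lower in both SYK KO libraries, at 2.11, 0.936, 0.583 and 0.381 CPM.

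The M7 library carried most of these low counts. Of the 10 genes, 9 were higher in M7 than in M8, and 7 were at least 2-fold higher, with *Lep* the exception at 0.326-fold. *Cidec* and *Retn* were each 8.06-fold higher in M7, *Car3* 2.85-fold, *Adipoq* and *Plin1* 2.69-fold and *Pck1* 2.24-fold. For comparison, 49.6% of genes with a count in either library were higher in M7, and 10.2% of genes with 10 to 200 counts over both libraries were at least 2-fold higher there. Of the other tissues, 6 liver markers were examined in the same libraries. Albumin (*Alb*) had 262 counts in M7, 80 in M8 and 0 in both SYK KO libraries, and apolipoprotein B (*Apob*) had 30, 1, 0 and 0, so M7 also held most of the liver-marker counts. The 10 skeletal muscle markers were mixed. Of the 5 tested, 1 was called higher and 2 lower, beside 22.7% and 16.7% of all genes tested. The summed levels of the 10 were 11.3, 13.6, 12.4 and 20.8 CPM. *Tnni2* was higher (134, 143, 205 and 311 counts) and supplied much of that sum. *Ckm* (40, 50, 5 and 9 counts) and *Tnnt3* (95, 88, 15 and 21 counts) were lower. *Ckm* passed the filter through the SYK WT libraries alone, so the filter itself had selected it for a lower level in SYK KO. *Myh1* and *Atp2a1* had 0 counts in both SYK KO libraries, and *Myh4* and *Pvalb* had 0 in all 4. The part of other tissues in the low counts was not tested.

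Per kilobase of the principal transcript, the order of mean levels in SYK WT was *Fabp4* (22.7 CPM per kb), *Cfd* (3.92), *Lipe* (2.79), *Car3* (1.31), *Adipoq* (0.290), *Cidec* (0.214), *Retn* (0.162), *Pck1* (0.149), *Plin1* (0.107) and *Lep* (0.0910). From *Adipoq* down, the ranges of the 2 libraries overlapped between neighbours, and the order among those 6 genes was not resolved. *Cfd* and *Lipe* also overlapped, since *Cfd* ran from 1.59 CPM per kb in M8 to 6.25 in M7. In SYK KO the level was 58.8 CPM per kb for *Fabp4*, 6.54 for *Lipe*, 0.634 for *Cfd* and 0.355 for *Car3*, and the other 6 genes lay between 0 and 0.109 CPM per kb. Adiponectin, leptin and perilipin 1, which define a fat cell, had 4 to 15 counts in each SYK WT library.

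Since the macrophage markers differed between genotypes, the same 4 tests were repeated with each library scaled to the geometric mean of its 10 macrophage markers. With this scaling 0 of the 4 genes were called higher, beside 3.02% of all genes tested, and 2 were called lower, beside 73.2%. On that scale the log2 fold change was -0.50 for *Fabp4* (edgeR adjusted p = 0.298) and -0.60 for *Lipe* (adjusted p = 0.255), and neither was called. *Lyz2*, the 1 macrophage marker that was lower in SYK KO, is the lysozyme M gene, whose promoter drives Cre in this strain. An effect of the strain on its level was not tested. Leaving out *Lyz2* moved *Fabp4* and *Lipe* further, to -1.16 (edgeR adjusted p = 0.0347) and -1.25 (edgeR adjusted p = 0.0348). Scaling to 6 pan-leukocyte markers gave -2.34 (edgeR adjusted p = 5.46e-07) and -2.45 (edgeR adjusted p = 4.26e-06). All 4 genes were then called lower on both of these scales, on which 83.8% and 93.3% of all genes tested were called lower and 1.07% and 0.31% higher. *Cfd* was lower on each of these scales, from -4.24 to -6.15 with edgeR adjusted p between 8.05e-08 and 7.21e-06, and so was *Car3*, from -3.46 to -5.38 with edgeR adjusted p between 1.04e-05 and 0.000646. The scales move every gene, since the median log2 fold change of all genes tested was 0.02 with TMM, -1.85 with 10 macrophage markers, -2.50 without *Lyz2* and -3.68 with leukocyte markers. Relative to those medians *Fabp4* and *Lipe* stayed above and *Cfd* and *Car3* stayed below on all 4 scales.

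**Figure D2:**
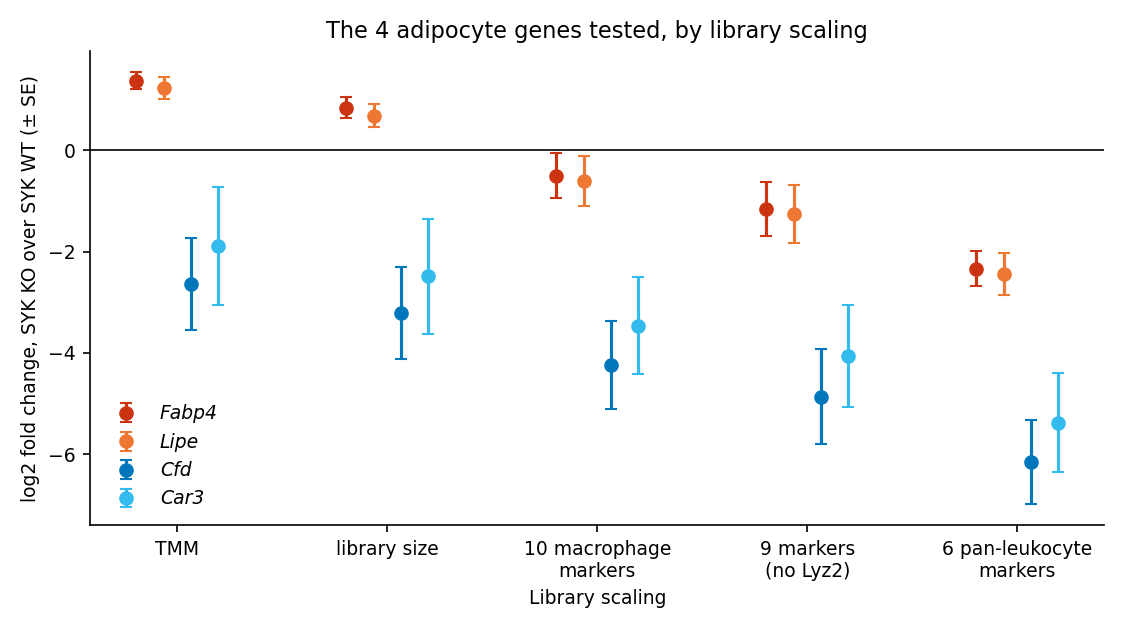
Log2 fold change of SYK KO over SYK WT (± SE of the edgeR fit, n = 2 libraries a genotype) for the 4 adipocyte genes tested, under 5 scalings of the libraries. *Fabp4* and *Lipe* are above 0 with TMM and library-size scaling and below 0 with the 3 marker scalings, and *Cfd* and *Car3* are below 0 throughout.

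Within each library, *Fabp4* stood at 32.7% and 42.7% of the geometric mean of 9 macrophage markers in M7 and M8, and at 14.0% and 19.6% in M9 and M10. *Lipe* stood at 16.2% and 21.0% against 5.29% and 10.4%. Both genes were therefore higher in CPM and lower per unit of macrophage marker in the SYK KO libraries. *Plin2*, the droplet protein that macrophages use, stayed in the same range, at 150.5%, 176%, 179% and 155% of the marker mean. *Fabp5*, another fatty-acid-binding protein gene of macrophages, stood at 128% and 190% in SYK WT against 108% and 92.3% in SYK KO. It was thus also lower per unit of macrophage marker in both SYK KO libraries. *Pparg* stood at 1.9%, 4.1%, 3.0% and 4.7% in the libraries M7 to M10, with the genotypes overlapping.

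The wider fat-cell programme was read from lists of 86 other genes, of which 70 were tested. With TMM, 21 were higher and 11 lower in SYK KO, beside 22.7% and 16.7% of all genes tested. Their median log2 fold change was 0.33 against 0.02 for all genes tested. With macrophage-marker scaling 6 were higher and 45 lower, beside 3.02% and 73.2% of all genes tested. Leukocyte-marker scaling gave 1 and 62, beside 0.31% and 93.3%. On the leukocyte scale *Retnla* was the gene called higher, and those of the 21 other than *Retnla*, *Fabp7* and *Lpl* were below 0. The calls listed next are those with TMM. They include *Ebf2*, *Thrsp*, *Plin4* and *Slc2a4*, which passed the filter through the SYK WT libraries alone and were called lower. They also include *Fabp7*, which passed through the SYK KO libraries alone and was called higher. The filter itself had selected such genes for a difference in that direction. Of these 32 calls, 14 were lost without M7 (edgeR adjusted p 0.0598 to 0.518), 15 without M8 (0.0625 to 0.366), 2 without M9 (0.0654 and 0.0912) and 0 without M10. The losses without either SYK WT library were *Abhd5*, *Adipor1*, *Car13*, *Cd55*, *Dio2*, *Ebf2*, *Gpihbp1*, *Lpin1*, *Ly6a*, *Plin4*, *Slc2a4* and *Thrsp* in both cases, with *Car12* and *Fabp7* also lost without M7 and *Dpp4*, *Insr* and *Pnpla2* without M8.

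Of 8 adipogenic transcription factors, 4 were higher and 1 lower. *Pparg*, the nuclear receptor that commits cells to the adipocyte fate and also acts in lipid-handling macrophages, had 34, 46, 249 and 216 counts, a log2 fold change of 2.94 (SE 0.354, edgeR adjusted p = 0.00218). Its partner *Cebpa* was higher by 3.14, *Cebpb* by 1.75 and *Cebpd* by 1.62 on the log2 scale. With macrophage-marker scaling *Cebpa* stayed called higher (1.27), *Pparg* was at 1.03 and not called, and *Cebpb* and *Cebpd* turned to -0.12 and -0.28. With *Lyz2* left out of that scaling, 0 of the 8 factors were called higher, and so with leukocyte-marker scaling. *Ebf2*, a factor of committed preadipocytes, had 26 and 20 counts in SYK WT and 0 in both SYK KO libraries, at least 5.70-fold lower, and it passed the filter through the SYK WT libraries alone.

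Few of the lipid-synthesis genes were called. Of 12 tested, *Lpin1*, a phosphatidate phosphatase, was higher at a log2 fold change of 0.51 and *Thrsp*, a lipogenic nuclear protein, was at -2.62 with 34, 17, 4 and 2 counts and passed the filter through the SYK WT libraries alone. *Fasn*, fatty acid synthase, was at -0.07 (edgeR adjusted p = 0.872). The call for *Lpin1* was lost without M7, M8 or M9; its value was -0.02 with library-size scaling.

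Of 12 droplet and lipolysis genes tested, 5 were higher and 1 was lower, beside a median of 0.62. *Plin2* (log2 fold change 2.64), the lipase inhibitor *G0s2* (2.21), the seipin gene *Bscl2* (2.03), adipose triglyceride lipase *Pnpla2* (0.997) and its co-activator *Abhd5* (0.65) were the higher genes. With macrophage-marker scaling *Plin2*, *G0s2* and *Bscl2* were at 0.72, 0.27 and 0.13 and not called, and *Pnpla2* and *Abhd5* turned to -0.87 and -1.25. *Plin4*, the perilipin that coats new droplets in white fat, was lower. It had 63 and 32 counts in SYK WT and 0 and 2 in SYK KO, a ratio of 35.6 with a counting interval from 9.58 to 298, and it too passed the filter through the SYK WT libraries alone.

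The 8 uptake genes split in both directions. Lipoprotein lipase (*Lpl*) was higher by 3.72 and the fatty acid receptor *Cd36* by 3.20, and both were also called higher with macrophage-marker scaling (1.96 and 1.24). With *Lyz2* left out of that scaling 1 of the 8 uptake genes was called higher, and with leukocyte-marker scaling 0 were. *Vldlr*, a lipoprotein receptor, was at -2.93, the insulin-responsive glucose carrier *Slc2a4* at -2.69 and *Gpihbp1*, which anchors lipoprotein lipase on capillaries, at -0.96, and all 3 were called lower. *Slc2a4* rested on 34, 20, 3 and 3 counts and passed the filter through the SYK WT libraries alone. Among 7 hormone receptors and signalling genes tested, the adiponectin receptor *Adipor1* was higher (0.77) and the insulin receptor *Insr* lower (-0.97), and *Adipor1* turned to -1.13 with macrophage-marker scaling. The beta-3 adrenergic receptor *Adrb3*, a marker of rodent adipocytes, had 0 counts in all 4 libraries.

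Of 8 genes of brown and beige fat, 5 were below the filter. *Elovl3* and *Cox8b* had 0 counts in every library, *Cidea* had 1 count in M8 alone, and *Ucp1*, the uncoupling protein of thermogenic fat, had 0, 0, 6 and 4 counts. Of the 3 genes tested, the deiodinase *Dio2* was lower at -0.70 (edgeR adjusted p = 0.0411) and *Prdm16* and *Cox7a1* were not called. Of 9 stromal and preadipocyte genes tested, *Dpp4* (2.64), *Cd55* (1.53) and *Ly6a* (0.88) were higher and *Pdgfra* (-1.50), which is also a fibroblast marker, was lower, and *Cd55* (-0.25) and *Ly6a* turned below 0 with macrophage-marker scaling.

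**Figure D3:**
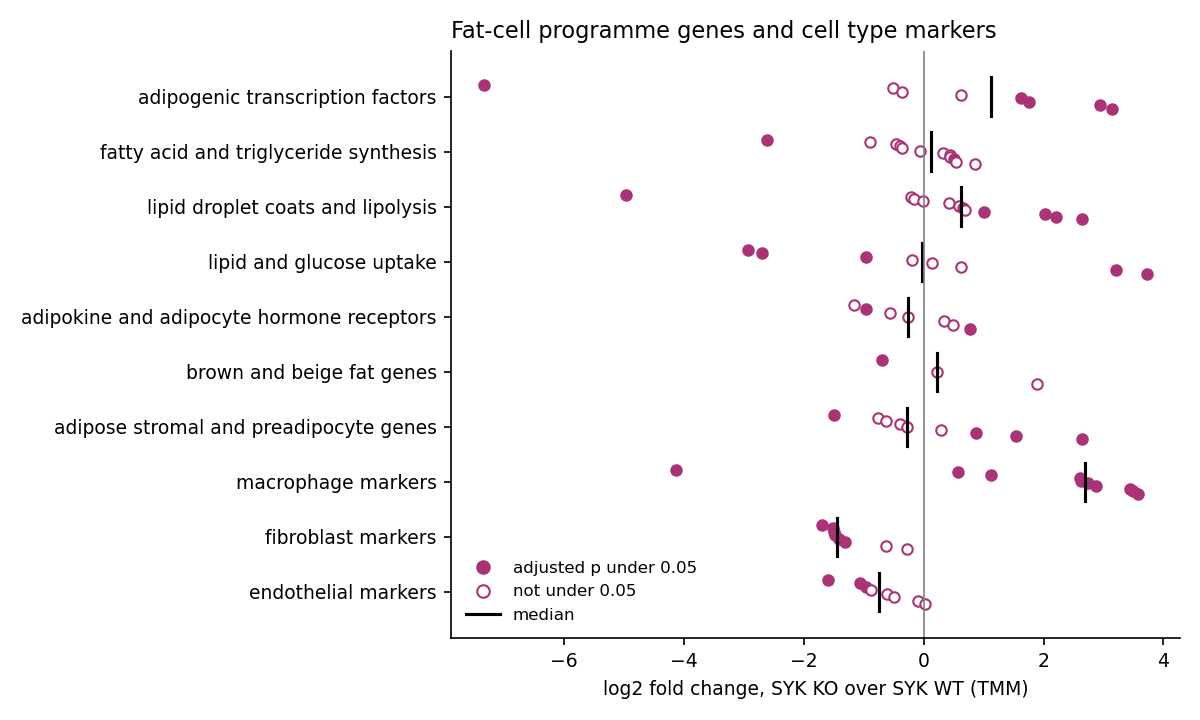
Log2 fold change of SYK KO over SYK WT with TMM scaling for each tested gene of 7 fat-cell lists and of the macrophage, fibroblast and endothelial markers, with filled circles for an edgeR adjusted p under 0.05, open circles for the rest and a black bar at each list's median. Macrophage markers lie to the right with *Lyz2* alone at -4.13, fibroblast markers lie to the left, and the fat-cell lists spread over both sides.

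Several of the 10 genes have close relatives that other cells use, and their levels are given per kilobase of the principal transcript. Of 23 paralogs, 15 were tested, and 6 were higher and 3 lower with TMM, or 3 higher and 6 lower with macrophage-marker scaling. FABP5, the fatty-acid-binding protein of macrophages and skin, had a gene level (*Fabp5*) of 84.9, 87.3, 437 and 234 CPM per kb, above that of *Fabp4* (23.8, 21.6, 62.7 and 54.8) in each library. *Fabp5* was higher in SYK KO by 1.96 on the log2 scale (0.02 with macrophage-marker scaling). *Fabp7* had 0, 1, 57 and 21 counts and passed the filter through the SYK KO libraries alone, so its call of higher followed in part from that selection.

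The resistin family split as well. *Retn* was at 0.0357 to 0.288 CPM per kb, while *Retnla*, a marker of alternatively activated macrophages, was at 20.9, 10.7, 641 and 266 CPM per kb. The log2 fold change of *Retnla* was 4.84 (SE 0.540, edgeR adjusted p = 0.0018), and it was called higher on each of the 5 scales, down to 1.12 with leukocyte markers. *Retnlg*, expressed in granulocytes, was higher by 3.45, and by 1.45 with macrophage-marker scaling. Among the perilipins, *Plin2* was at 52.0, 42.2, 380.5 and 205 CPM per kb, whereas *Plin1* did not exceed 0.155 CPM per kb and *Plin5* had no counts. Of the carbonic anhydrases, *Car9* (-2.35) and *Car12* (-0.90) were lower and *Car13* (1.34) was higher with TMM, the last at -0.57 with macrophage-marker scaling. Cytosolic PEPCK (*Pck1*) was at most at 0.206 CPM per kb, and its mitochondrial relative *Pck2* was at 7.22 to 13.3.

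**Figure D4:**
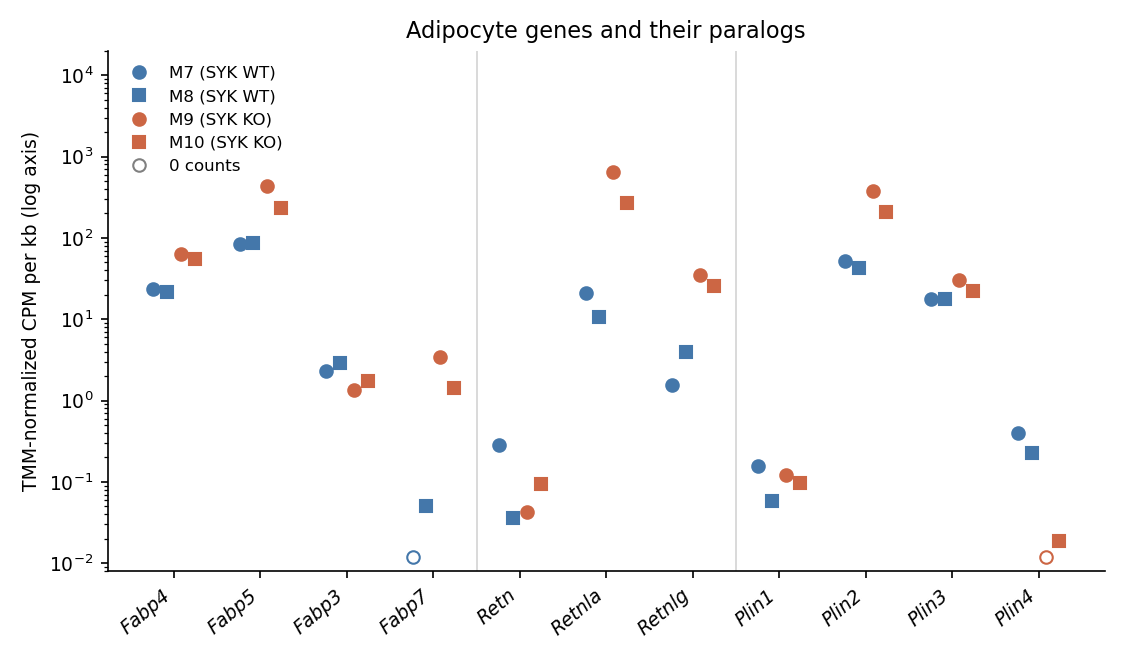
TMM-normalized CPM per kilobase of principal transcript for *Fabp4*, *Retn* and *Plin1* and their paralogs in each library on a log axis, with circles and squares for the libraries of each genotype and open symbols for 0 counts, placed near the bottom. *Fabp5*, *Retnla* and *Plin2* lie above *Fabp4*, *Retn* and *Plin1* in every library, and *Retn* and *Plin1* do not exceed 0.288 CPM per kb.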

How the data were processed

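Gene-level read counts were analysed for 4 mouse TAM libraries, 2 labelled SYK WT and 2 labelled SYK KO. Per the labels, mRNA was enriched by polyA selection and sequenced as paired reads; the authors aligned them with STAR on mm10 and estimated transcript abundance with Salmon, and the deposited values are whole-number counts per Ensembl gene with no normalization. The submitters' processing notes name STAR 2.6.1d, Salmon 1.4.0, SAMtools 1.9, Picard 2.26 and MultiQC 1.11. How whole numbers were made from Salmon's estimates, and the strand setting, are not given in the sources used here. Estimates of this kind can divide reads among similar genes, which bears on the paralogs.

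Symbols and coordinates came from GENCODE M21 (GRCm38), with 54495 of 54532 identifiers matched. Counts were filtered with filterByExpr, scaled with TMM and tested with edgeR 4.0.16 (quasi-likelihood test, R 4.3.3), adjusted by Benjamini and Hochberg's method across all 16451 genes left, at a threshold of 0.05. CPM are TMM-normalized, the SE is the absolute log2 fold change divided by the square root of F, and low counts were compared with 95% exact conditional binomial intervals. A level at 0 was given as a bound, the SYK WT mean against the mean level of 3 counts in each SYK KO library. Levels between genes are per kilobase of the longest principal transcript. With 2 libraries a genotype an exact permutation test of a single value cannot go below 0.333, and none was used. The library counts of a genotype differed by more than sampling noise (chi-square per degree of freedom 51.2 in SYK WT and 170 in SYK KO), and each library was counted as a replicate. The fit was checked on simulated counts.

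The 10 genes and all gene lists were chosen with earlier results of these data known. The genes named are the 10, the listed genes, *Syk* and the 5 genes most like *Adipoq* (or *Plin1*) had either passed the filter, which neither did. Of the marker lists, macrophage, fibroblast, skeletal muscle and liver values are given in the report and the others among the closing observations. The alternatives were 12 planned ones (DESeq2 size factors, library size, macrophage and pan-leukocyte marker scalings, 2 other filters, removal of mitochondrial and rRNA-like genes, DESeq2 1.42.0, and each library left out) and 1 chosen after seeing the data, the macrophage scaling without *Lyz2*.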

Additional observations from a re-analysis of the deposited data

How the results depend on the processing

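With TMM and the main filter, 2 of the 10 adipocyte genes were higher and 0 lower, 21 of the pathway genes were higher and 11 lower, and 3729 of all genes were higher and 2747 lower. Library-size scaling gave 1 adipocyte gene lower, 22 pathway genes lower, and 1677 genes higher and 5411 lower over all genes. Macrophage-marker scaling gave 0 adipocyte genes higher and 2 lower, 6 pathway genes higher and 45 lower, and 497 and 12036 of all genes, with *Fabp4* at -0.50 and *Lipe* at -0.60. Without *Lyz2* in that scaling the counts were 0 and 4, 3 and 47, and 176 and 13787, with *Fabp4* at -1.16 and *Lipe* at -1.25. Pan-leukocyte scaling gave 0 and 4, 1 and 62, and 51 and 15341, with *Fabp4* at -2.34, *Lipe* at -2.45 and *Syk* at -0.90. These shifts follow from the scaling, which moves the median of all genes as given in the report. Lifting the filter gave 4 adipocyte genes lower and DESeq2 gave 1. With 1 library left out, adipocyte genes were higher in 1 to 2 and lower in 0 to 4 cases, pathway genes higher in 13 to 25 and lower in 4 to 21, and all genes higher in 1478 to 5010 and lower in 807 to 4745; a genotype left with 1 library is assumed to vary like the other. The cause of these differences between libraries was not tested. The set of genes that passed the filter also changed with the libraries kept. Of the 10 adipocyte genes, 4 were tested without M7, 8 without M8 and 9 without M9 or without M10. DESeq2 size factors, a minimum of 10 counts in every library and removal of mitochondrial and rRNA-like genes kept *Fabp4* and *Lipe* called, in the same direction. *Cfd* and *Car3* did not reach that minimum of 10 counts and were not tested under it. No paired analysis was possible because the labels carry no replicate number that links a SYK WT library to a SYK KO library. Depth limits the 6 genes with at most 18 counts, for which moderate differences were not detectable.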

Other observations

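Markers of other tissues gave further low counts. Of 6 liver markers, *Alb*, *Ttr*, *Apob* and *Cyp3a11* had counts in SYK WT and 0 in both SYK KO libraries, and the summed level was 12.3 and 3.87 CPM in SYK WT against 0.0486 and 0.0545 CPM in SYK KO. *Alb*, the main plasma protein made by hepatocytes, was the 1 liver marker that passed the filter. It passed through the SYK WT libraries alone, so the filter itself had selected it for a lower level in SYK KO. The *Alb* level in SYK KO was at least 41.4-fold lower. Transthyretin (*Ttr*) had 14 and 8 counts in SYK WT and *Apoa1* had 26, 3, 1 and 1, so that M7 held the most counts for each of these secreted proteins. *Serpina1c* had 0 counts in all 4 libraries. The other 5 liver markers, like *Adipoq*, *Lep* and *Pck1*, had counts in both SYK WT libraries and at most 1 count in each SYK KO library; a shared source was not tested.

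Other marker lists moved as follows with TMM, beside 22.7% of all genes tested called higher and 16.7% lower by edgeR. DESeq2 called 18.9% of its genes higher and 15.3% lower. Of 8 endothelial markers 3 were lower and 0 higher, with summed levels of 191 and 194 CPM in SYK WT and 147 and 138.5 CPM in SYK KO; DESeq2 also gave 0 higher. All 6 pan-leukocyte markers were higher (median 3.69 on the log2 scale), and so were the 3 neutrophil markers tested of 6. Of the keratinocyte markers 2 were tested and 1, *Krt10*, which passed the filter through the SYK KO libraries alone, was higher. Of the tumor-cell markers 3 were tested (*Hand2*, *Ddc* and *Chga*) and none was called by edgeR, while DESeq2 called 1 of them higher. *Chga* (log2 fold change 2.80) was higher at an unadjusted edgeR p under 0.05, for which the share of all genes was not counted.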
